A study of Oncorhynchus mykiss with 6 samples.

Results

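The miR-10 and miR-196 families are microRNAs (miRNAs, small RNAs that guide the silencing of matching mRNAs) encoded inside the Hox gene clusters of vertebrates. All rows of the deposited table whose Atlantic salmon (ssa) name belongs to either family were taken, in any letter, copy and arm, which gave 10 of 1381 rows. Of these, 6 belong to miR-10 (ssa-miR-10a-5p, miR-10a-3p, miR-10b-5p, miR-10b-3p, miR-10b-2-3p and miR-10d-5p) and 4 to miR-196 (miR-196a-5p, miR-196a-2-3p, miR-196b-5p and miR-196b-3p). The members were matched by name, and the table gives neither sequences nor positions, so their place in the Hox clusters could not be checked in these data.

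The libraries were made from head kidney, which in teleosts takes the place of bone marrow in making blood and immune cells, of 6 female rainbow trout (Oncorhynchus mykiss) aged 1 year. The heat-treated group was 3 fish at 24 °C and the control group 3 fish at 18 °C, with 1 small RNA library per fish and no other treatment or genotype given. How long the fish were heated is not stated in the labels or the design text. A library holds the RNA of all cells of the organ, so fewer cells of a type and less RNA per cell cannot be told apart.

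Hox genes encode transcription factors that set position along the body axis, and they stay active in blood progenitors. miR-10 genes lie next to Hox4 genes and miR-196 genes lie further towards the posterior end of the clusters, next to Hox9 genes. In zebrafish, miR-10 represses hoxb1a and hoxb3a and supports the sprouting of blood vessels, and in mouse miR-196 directs cleavage of the Hoxb8 mRNA. Each hairpin precursor yields a 5p and a 3p strand, and usually one of them, the guide strand, is kept in the silencing complex.

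Library totals ran from 4289895 to 5156793 counts at 24 °C and from 3753036 to 5063549 at 18 °C. Of the 1381 rows, 537 had enough counts to be tested. As a check of the tissue, leukocyte miRNAs (7 rows of 3 families) summed to between 13832 and 17472 CPM (counts per 1000000 of the TMM-scaled library total) at 24 °C and between 9590 and 17031 CPM at 18 °C. The endothelial miR-126 rows summed to between 87083 and 101990 CPM at 24 °C and between 81201 and 107154 CPM at 18 °C. Striated muscle miRNAs (11 rows of 4 families, of which 1 of 6 tested rows passed the test below) summed to between 1137 and 2326 CPM at 24 °C and between 411 and 725 CPM at 18 °C, without overlap. The row that passed, miR-499a-5p, had means of 935 CPM at 24 °C and 162 CPM at 18 °C. Among the 6 tested rows 5 had a log2 fold change above 0. The other, miR-499b-5p, had means of 114 CPM at 24 °C and 180 CPM at 18 °C. Red cell miRNAs (2 rows of miR-144) ranged from 405 to 3052 CPM at 24 °C and from 383 to 870 CPM at 18 °C. Epithelial miRNAs (14 rows) ranged from 404.6 to 435.3 CPM at 24 °C and from 434.5 to 838.5 CPM at 18 °C. These groups overlapped only through control replicate 2, at 434.5 CPM. Of the 7 tested epithelial rows, 0 had a log2 fold change above 0, with a median of -0.91, and 0 passed the test. Nephron miRNAs (8 rows) ranged from 1763 to 2548 CPM at 24 °C and from 2115 to 2993 CPM at 18 °C. Of the 6 tested nephron rows, 5 had a log2 fold change above 0, with a median of 0.34 over the 6. The other, miR-204-5p, had means of 987 CPM at 24 °C and 1516 CPM at 18 °C. Smooth muscle and fibroblast miRNAs (8 rows) ranged from 46408 to 69139 CPM at 24 °C and from 55782 to 80615 CPM at 18 °C. The liver miRNA miR-122-5p ranged from 24.2 to 74.1 CPM at 24 °C and from 5.30 to 81.6 CPM at 18 °C.

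The 2 families differed in abundance far more than the temperatures did. The miR-10 rows together held 1738160 counts over the 6 libraries, or 6.32% of all counts, and the miR-196 rows held 92 counts. Within single libraries the miR-10 counts were between 7630 and 61800 times the miR-196 counts. Of the 10 rows, 6 passed the filter on low counts (5 of miR-10 and 1 of miR-196), and the rows left out were miR-10b-3p, miR-196a-2-3p, miR-196b-5p and miR-196b-3p. None of the 6 passed the test between the temperatures in either direction (edgeR quasi-likelihood, Benjamini-Hochberg adjustment over the 537 rows, threshold 0.05). Over all tested rows 0.186% were called higher and 0% lower at 24 °C, so that a count of 0 among 6 is near the background. DESeq2 and limma-voom also called 0 of the 6, and the count at an unadjusted p under 0.05 was 0 with each of the 3 tools, while in edgeR 3.35% of all tested rows reached it on the higher side and 3.17% on the lower side. Over all tested rows DESeq2 called 0.372% higher and 0.559% lower and limma-voom 0.186% higher and 0% lower, and an unadjusted p under 0.05 was reached by 47 of the 537 rows in DESeq2 and 28 in limma-voom.

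**Figure D1:**
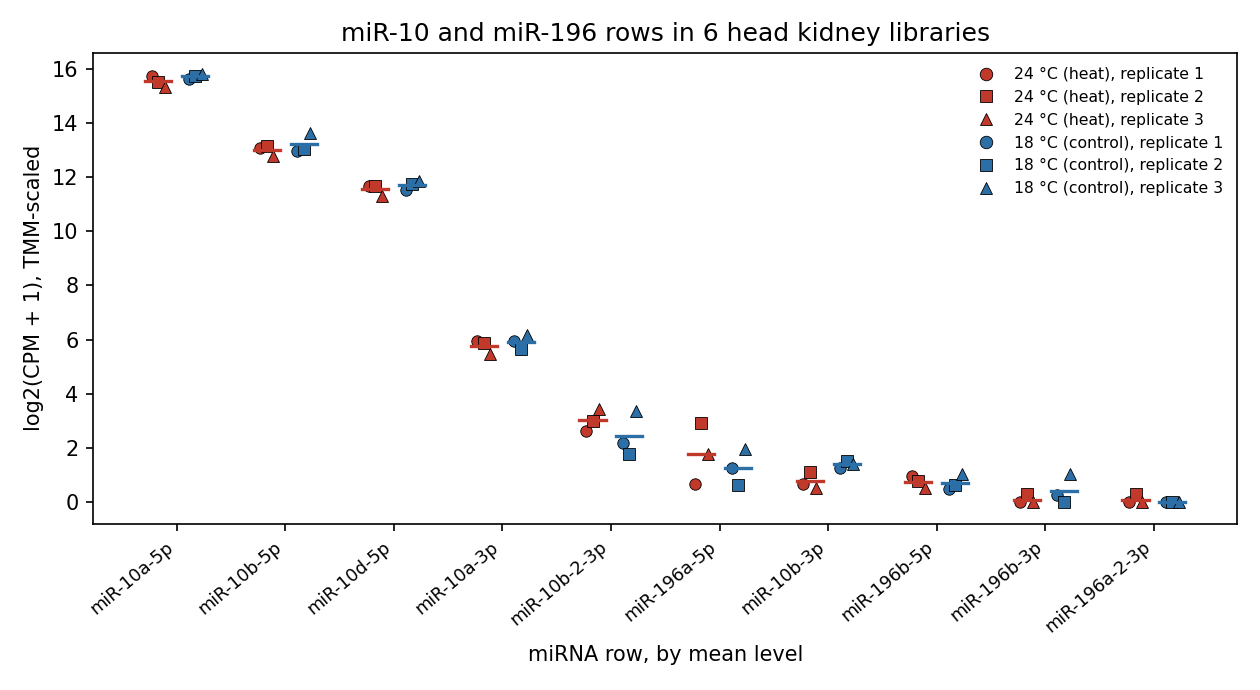
Level of each miR-10 and miR-196 row as log2(CPM + 1), with the rows in order of mean level on the horizontal axis. Points are single libraries (red: 24 °C, blue: 18 °C) and bars are group means of the log2 values; the 3 leading miR-10 5p rows stand far above every miR-196 row, and the colours overlap in every row except miR-10b-3p.

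miR-10a-5p, the 5p strand of the miR-10a hairpin, was the most abundant member and ranked 5 among the 1381 rows. It had 54736, 46825 and 41570 CPM in the 3 libraries at 24 °C, against 50331, 54641 and 56668 CPM at 18 °C. Heat replicates 2 and 3 lay below all 3 control libraries, while heat replicate 1 lay above 2 of them, so the groups overlapped. The means were 47710 ± 6628 CPM in heat-treated fish and 53880 ± 3237 CPM in control fish (SD, n = 3 each), with a log2 fold change of -0.18 ± 0.14 (SE; edgeR adjusted p = 0.79). The 95% interval of the fold, 0.705 to 1.11, lies well inside 2-fold either way. Without heat replicate 1 the log2 fold change was -0.30 (edgeR adjusted p = 0.73).

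miR-10b-5p, known from mammalian studies as a promoter of tumour cell invasion through HOXD10, ranked 26. It had 8635, 9101 and 6977 CPM at 24 °C, against 8086, 8391 and 12646 CPM at 18 °C. Control replicate 3 stood above the other 5 libraries, which lay close together. The log2 fold change was -0.24 ± 0.21 (edgeR adjusted p = 0.84), the lowest estimate among the 6 tested members, and it was -0.02 without control replicate 3, at an edgeR adjusted p of 0.99. Without control replicate 2 it was -0.41 and without control replicate 1 it was -0.36 (edgeR adjusted p = 0.63 and 0.85).

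miR-10d-5p, a member also named in zebrafish, ranked 47. It had 3302, 3251 and 2518 CPM at 24 °C, against 2916, 3425 and 3731 CPM at 18 °C. The groups overlapped, with heat replicate 3 lowest and control replicate 3 highest. The log2 fold change was -0.15 ± 0.18 (edgeR adjusted p = 0.88; 95% interval of the fold 0.677 to 1.199), and without heat replicate 3 it was -0.08, at an edgeR adjusted p of 0.96. Leaving out control replicate 3 gave -0.09 (edgeR adjusted p = 0.94), while leaving out control replicate 1 or heat replicate 1 gave -0.24 in both cases (edgeR adjusted p = 0.86 and 0.79).

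Heat replicate 3 thus held the lowest level, and control replicate 3 the highest, of all 3 abundant 5p members, and the same held for miR-10a-3p. Heat replicate 3 is also the library with the highest sums of leukocyte, striated muscle and red cell miRNAs, 17472, 2326 and 3052 CPM. Its sums of nephron miRNAs and of smooth muscle and fibroblast miRNAs, 1763 and 46408 CPM, are the lowest. Control replicate 3 held 15651 CPM of leukocyte, 725 CPM of striated muscle and 383 CPM of red cell miRNAs. It held 2115 CPM of nephron and 75970 CPM of smooth muscle and fibroblast miRNAs. Its striated muscle sum is the highest and its nephron sum the lowest of the control group. Its red cell and endothelial sums, 383 and 81201 CPM, are the lowest of the 6 libraries. Heat replicate 3 held 87083 CPM of endothelial miRNAs, the lowest of the heat group. Epithelial and liver sums were 413 and 24.2 CPM in heat replicate 3, and 833 and 81.6 CPM in control replicate 3. The part of these sums in the miR-10 values was not tested. Without heat replicate 3 the log2 fold changes of the 3 abundant 5p rows lay between -0.18 and -0.08. The spread of these 3 members between fish, with coefficients of variation of 13.5% to 14.5% at 24 °C and 6.01% to 26.3% at 18 °C, was far above the counting error of at most 0.842%. Taken over the 6 libraries, the root mean square deviation of log2(CPM + 1) was 0.16 for miR-10a-5p, 0.18 for miR-10d-5p and 0.26 for miR-10b-5p, against a median of 0.38 over the 537 tested rows. Most of those rows are rarer, with more counting error, and the spread of the members was not compared with that of rows of like level.

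The miR-10 family as a whole took 6.71%, 5.58% and 5.38% of the counts of the libraries at 24 °C, against 6.18%, 6.59% and 7.37% at 18 °C. Heat replicate 1 lay above control replicates 1 and 2, so the groups overlapped. The means were 5.89% ± 0.718 in heat-treated fish and 6.71% ± 0.603 in control fish (SD, n = 3 each), a difference of -0.82 percentage points between groups that overlap. It was -0.50 percentage points without control replicate 3 and -1.23 without heat replicate 1. No test was made on these sums.

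The make-up of the miR-10 counts differed little between the temperatures. The 3 abundant 5p rows made up 99.9% of the miR-10 counts. miR-10a-5p took 80.8% ± 1.56 of the miR-10 counts in heat-treated fish and 80.5% ± 2.64 in control fish, miR-10b-5p took 14.0% ± 1.25 in heat-treated fish and 14.4% ± 2.56 in control fish, and miR-10d-5p took 5.12% ± 0.319 in heat-treated fish and 5.0001% ± 0.219 in control fish (SD, n = 3 each). All 3 differences, at 0.25, -0.38 and 0.12 percentage points, were smaller than the SD of either group. The ratio of miR-10b-5p to miR-10a-5p was 0.158, 0.194 and 0.168 at 24 °C, against 0.161, 0.154 and 0.223 at 18 °C, with control replicate 3 again the highest.

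**Figure D2:**
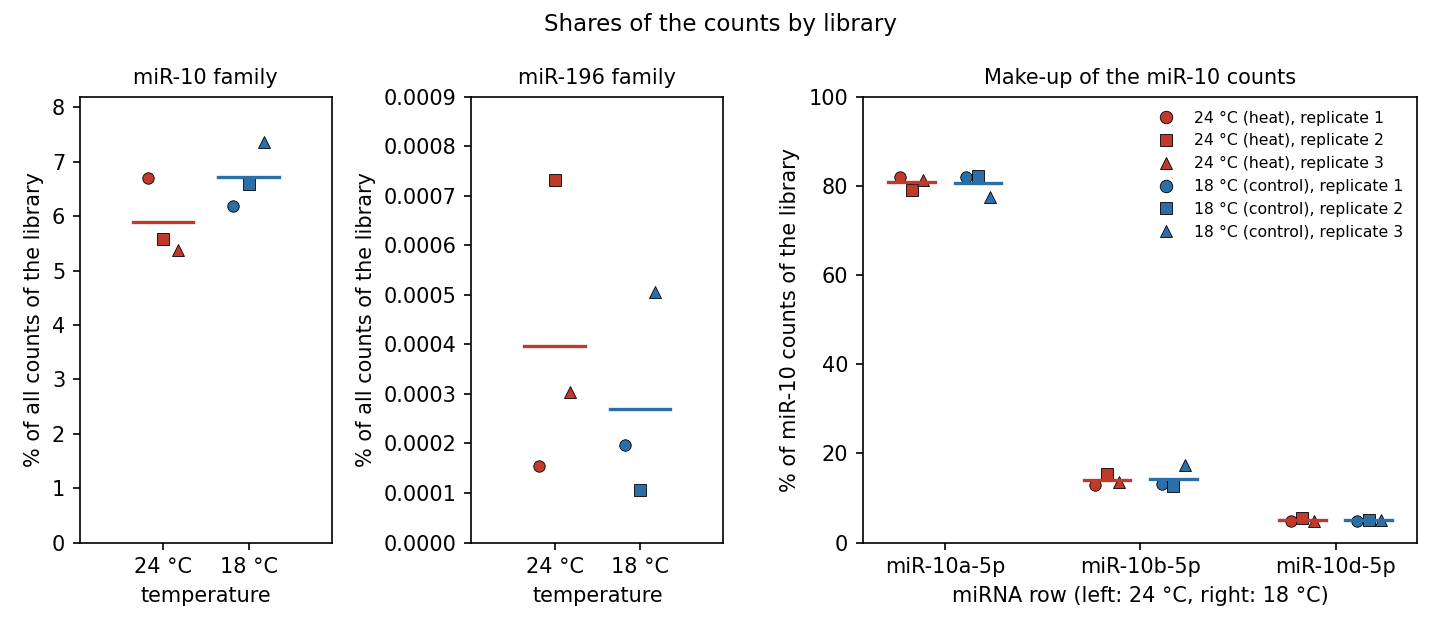
Share of all counts of each library held by the miR-10 family (left) and the miR-196 family (middle), and share of the miR-10 counts held by its 3 abundant 5p rows (right), all in percent. Points are libraries (red: 24 °C, blue: 18 °C) and bars are group means; the miR-10 share lies between 5.38% and 7.37% and that of miR-196 between 0.000107% and 0.000731%, and miR-10a-5p holds 77.5% to 82.2% of the miR-10 counts in every library.

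The 3p strands of miR-10, which the hairpin yields beside the 5p strand, were scarce. miR-10a-3p had 61.0, 57.6 and 43.9 CPM at 24 °C, against 60.4, 49.8 and 71.5 CPM at 18 °C, and the groups overlapped in part (log2 fold change -0.16 ± 0.27, edgeR adjusted p = 0.92). The log2 ratio of miR-10a-5p to miR-10a-3p counts (0.5 added to each) was 9.81, 9.66 and 9.88 at 24 °C, against 9.70, 10.1 and 9.63 at 18 °C. On average the 5p strand had 889 counts for each 3p count, which ranked 4 among the 79 precursors that averaged 10 or more counts in each arm. Their median log2 ratio was 2.90, and the highest was 12.8, for miR-100a. Precursors with a rarer arm are left out of this ranking, miR-10b among them. Its mean log2 ratio of miR-10b-5p to miR-10b-3p was 13.3 at 24 °C and 12.4 at 18 °C. The miR-10a ratio differed between the temperatures by -0.02 ± 0.25 (SE; limma over the 79 precursors, adjusted p = 0.96), and its sign turned without heat replicate 2 (0.04, limma adjusted p = 0.97) or without control replicate 2 (0.12, limma adjusted p = 0.88). Of the 79 ratios, 0% passed the test and 7 had an unadjusted p under 0.05.

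miR-10b has a single 5p row and a pair of 3p rows, one of them carrying a copy number, which in this naming marks hairpins that give the same mature 5p strand. miR-10b-2-3p had 27, 30 and 44 counts at 24 °C, against 18, 9 and 45 counts at 18 °C (log2 fold change 0.51 ± 0.55, edgeR adjusted p = 0.85). Heat replicate 3 and control replicate 3 were the highest of their groups, and without control replicate 3 the log2 fold change was 1.26 (edgeR adjusted p = 0.72), while without control replicate 2 it was 0.11 (edgeR adjusted p = 0.95). Without heat replicate 3 it was 0.18 (edgeR adjusted p = 0.97) and without control replicate 1 it was 0.29 (edgeR adjusted p = 0.95).

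miR-10b-3p had 3, 5 and 2 counts at 24 °C, against 7, 7 and 8 counts at 18 °C, and was too rare to be tested. Pooled over the 3 libraries of a group this is 0.717 CPM at 24 °C (exact Poisson 95% interval 0.344 to 1.32) and 1.62 CPM at 18 °C (1.01 to 2.45), intervals that cover counting error only and overlap. It is the 1 member of the 10 whose groups did not overlap in CPM, on the lower side at 24 °C, as was so for 6.08% of all 1381 rows. A further 5.58% of the 1381 rows were apart on the higher side. Of the 6 tested members none had groups apart, against 6.89% of the tested rows higher and 5.96% lower at 24 °C. Reads that match both copies may be split or shared between the 3p rows, since how the authors handled such reads is not stated in the labels or the file header.

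**Figure D3:**
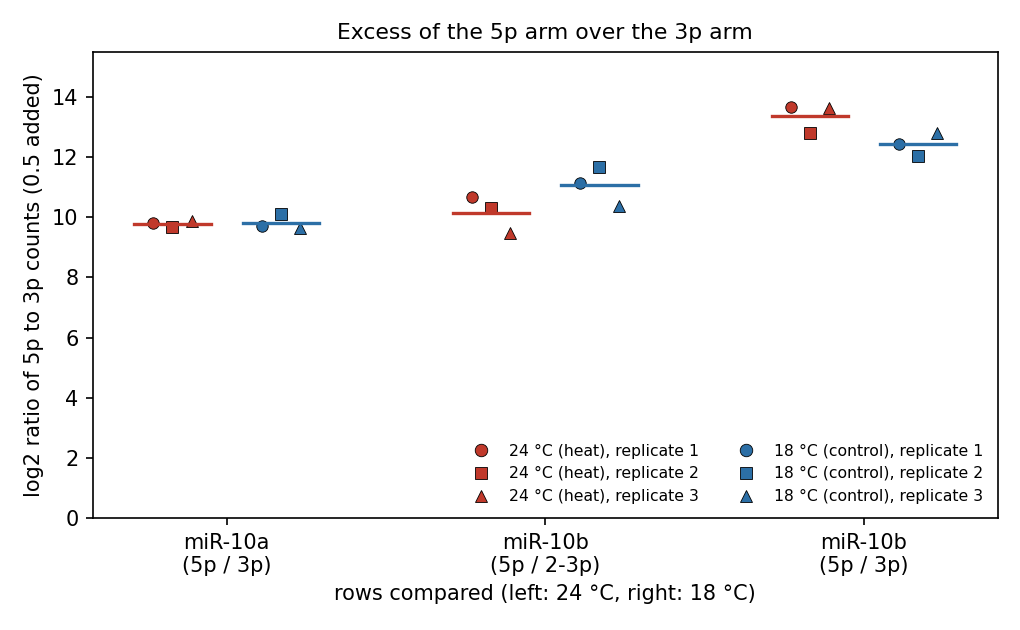
Log2 ratio of 5p to 3p counts, with 0.5 added to each count, for miR-10a and for miR-10b against each of its 3p rows. Points are libraries (red: 24 °C, blue: 18 °C) and bars are group means; the lowest ratio is 9.47, and both miR-10b columns use the same 5p counts, since the table has a single miR-10b-5p row.

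The miR-196 family was close to the limit of detection. miR-196a-5p, its most abundant row, had 3, 28 and 11 counts at 24 °C, against 7, 2 and 14 counts at 18 °C. In CPM these were 0.579, 6.59 and 2.44 at 24 °C, and 1.37, 0.538 and 2.93 at 18 °C, and 3 counts corresponded to 0.579 to 0.807 CPM depending on the library. The fish of one group differed among themselves by more than the groups did, and the groups overlapped. The log2 fold change was 0.93 ± 0.91 (95% interval -1.21 to 3.07; edgeR adjusted p = 0.84), and it turned to -0.14 without heat replicate 2 (edgeR adjusted p = 0.98). It was 1.61 without control replicate 3 and 0.48 without control replicate 2, and 0.37 in limma-voom with all libraries, none of which passed.

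The other miR-196 rows gave no more than 5 counts in any library. miR-196b-5p had 5, 3 and 2 counts at 24 °C, against 2, 2 and 5 counts at 18 °C. miR-196b-3p had 0, 1 and 0 counts at 24 °C, against 1, 0 and 5 counts at 18 °C, and the single count of miR-196a-2-3p came from heat replicate 2. At 18 °C the 0 counts of miR-196a-2-3p over the 3 libraries allow up to 0.221 CPM (3 counts of their scaled total).

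Together the miR-196 rows had 8, 33 and 13 counts in the libraries at 24 °C, against 10, 4 and 24 counts at 18 °C. Heat replicate 2, at 0.000731% of its counts (exact binomial 95% interval 0.000503% to 0.00103%), lay clear of heat replicate 1, at 0.000155% (6.70e-05% to 0.000306%), so the difference between these fish was beyond counting error. The mean share was 0.000397% ± 0.000299 in heat-treated fish and 0.00027% ± 0.000209 in control fish (SD, n = 3 each), a difference inside the spread between fish. Its sign turned without heat replicate 2, at -4.08e-05 percentage points.

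By level over the 6 libraries the order was miR-10a-5p (50795 CPM), miR-10b-5p (8973), miR-10d-5p (3191), miR-10a-3p (57.4), miR-10b-2-3p (6.23), miR-196a-5p (2.41), miR-10b-3p (1.19), miR-196b-5p (0.682), miR-196b-3p (0.246) and miR-196a-2-3p (0.0392), all as mean CPM. Each of the first 5 lay above its next lower neighbour in 6 of 6 libraries, by 5.66-fold for miR-10a-5p over miR-10b-5p and by 2.81-fold for miR-10b-5p over miR-10d-5p. From miR-196a-5p downwards, neighbours did not differ beyond their spread: miR-196a-5p was above miR-10b-3p in 3 of 6 libraries. Mature miRNAs are of nearly equal length, so no length term was applied. Adapters ligate to some miRNAs better than to others, and the effect of this on the order was not tested.

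The 6 tested members had a median log2 fold change of -0.16, with 4 estimates below 0 and 2 above, against a median of 0.002 and 49.7% below 0 over all 537 tested rows. The members with estimates above 0 were the 2 rarest, miR-10b-2-3p and miR-196a-5p. For 4 of the 6, namely the 3 abundant 5p rows and miR-10a-3p, the 95% interval of the fold change lay within 2-fold in both directions, as it did for 31.5% of the 537 rows. These 4 are the most abundant of the 6 and most of the 537 rows are rarer. Rows of like level were not compared. The miR-99 and miR-100 families, whose mature strands resemble that of miR-10, had 5 rows and 3 tested members, 0 of which passed, with a median log2 fold change of -0.02. Among these miR-100a-5p had 62788 ± 8302 CPM in heat-treated fish and 63609 ± 6152 CPM in control fish (SD, n = 3 each; log2 fold change -0.02 ± 0.15, edgeR adjusted p = 0.996), while the estimates were 0.099 ± 0.18 for miR-99-5p and -0.19 ± 0.36 for miR-100a-3p. Of 18 tested let-7 rows 0 passed, with a median of -0.03. The 95% interval of the fold change lay within 2-fold for 13 of these 18 and for 2 of the 3 miR-99 and miR-100 rows. No test of a difference between these families was made.

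**Figure D4:**
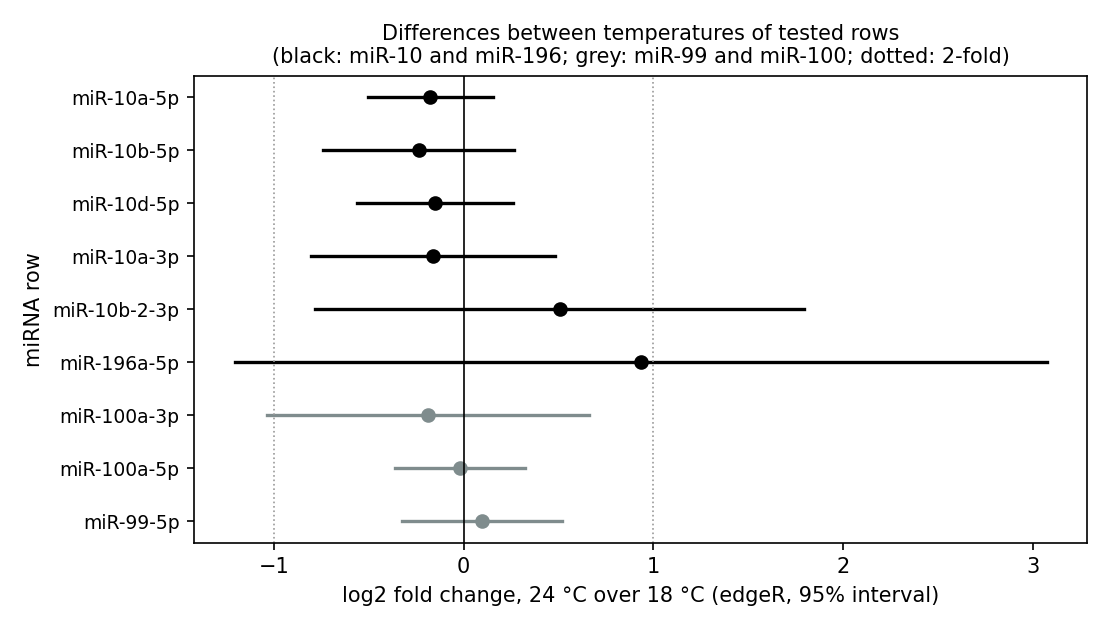
Log2 fold change of 24 °C over 18 °C with its 95% interval (edgeR) for the 6 tested miR-10 and miR-196 rows (black) and the 3 tested miR-99 and miR-100 rows (grey); dotted lines mark 2-fold either way. Every interval includes 0, and those of miR-10b-2-3p and miR-196a-5p are the widest, with that of miR-196a-5p running from -1.21 to 3.07.

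The miRNAs whose pattern over the 6 libraries was most like that of miR-10a-5p were miR-145-5p, miR-30a-5p, miR-30c-3p, miR-130b-5p and miR-30d-2-3p. Likeness was the root mean square difference of log2(CPM + 1) values centred on each row's mean, over 221 other annotated rows of at least 10 CPM. It was 0.076 for miR-145-5p, which is known from smooth muscle, 0.088 for miR-30a-5p, which is known from kidney epithelium, and 0.12 for the other 3, against a median of 0.33 over the 221 rows. For a row as even as miR-10a-5p, this measure favours rows that vary little. For miR-196a-5p the nearest rows were miR-19a-3p (0.53), miR-29b-3p (0.56), miR-148a-5p (0.57), miR-144-3p (0.58) and miR-454-3p (0.58), against a median of 0.85. At 2 to 28 counts per library, counting error adds to the distance of miR-196a-5p from every row. How closely any row follows it therefore cannot be told.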

How the data were processed

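Small RNA libraries of 6 head kidneys (3 fish at 24 °C, 3 at 18 °C) were analysed from the read counts per miRNA deposited by the authors, whole numbers in 1381 rows. The deposited TPM values are the same counts scaled by library total, without a length term (they differ by at most 2.33e-10), and were not used further. The submitters' processing notes name Bowtie, with no version. A genome build, a length filter and a rule for reads matching several miRNAs were not found in the labels or the file header.

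Groups followed the library titles together with the series' design text, and each library is a separate fish. Every pair of libraries differed by more than sampling noise (the chi-square statistic over its degrees of freedom lay between 62.96 and 187). All rows were fitted with edgeR 4.0.16 in R 4.3.3: filterByExpr (minimum count 10, minimum total 15) kept 537 rows, library totals over the whole table were scaled by TMM, and heat was tested against control by the quasi-likelihood F test with robust moderation. Fold changes are 24 °C over 18 °C, with Benjamini-Hochberg adjustment over the 537 rows and standard errors derived from the F statistic. DESeq2 1.42.0 and limma-voom (limma 3.58.1) were alternatives. Arm ratios were tested with limma over the 79 precursors that averaged 10 or more counts in each arm. The fit was tested on simulated data, where it missed most of the rows changed 2-fold, so a row that was not called may still differ. The simulation changed far more rows than were called in these data, and its recovery was taken over rows of all levels. How it applies to rows as abundant as the miR-10 5p rows was not tested. Intervals and floors from counts cover counting error only. Every member row is named, as are the 5 rows nearest in pattern to miR-10a-5p and to the most abundant miR-196 row and the tested miR-99 and miR-100 rows. The members and lists were chosen with earlier results of these data known. Figures were drawn with matplotlib 3.10.9.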

Additional observations from a re-analysis of the deposited data

How the results depend on the processing

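The numbers of members called higher and lower at 24 °C were both 0 in all 16 alternatives: DESeq2 size factors, library totals, DESeq2, limma-voom, no filter, a minimum count of 50, the non-robust fit, numbered copies pooled, predicted rows left out, a replicate block and each library left out in turn. Over all tested rows the alternatives called at most 5 of 537, in DESeq2. They called 0 rows with the replicate block and without heat replicate 2, control replicate 1 or control replicate 3. A count of 0 among the members is therefore near the background in each of them. Of 94 log2 fold changes of the 6 tested members under these alternatives, 93 had the same sign and none passed. The exception was miR-196a-5p, at -0.14 without heat replicate 2, where the highest count was removed, and it ran up to 1.61 without control replicate 3. The minimum count of 50 left out miR-10b-2-3p and miR-196a-5p. An unadjusted p under 0.05 was reached by 1 member without control replicate 3 (edgeR) and by 0 in every other alternative. That member was the rare miR-10b-2-3p, with a log2 fold change of 1.26 there (edgeR adjusted p = 0.72). The difference in the miR-10a arm ratio ran from -0.11 to 0.12 without a library, with its sign turned without heat replicate 2 (0.04) and without control replicate 2 (0.12); the cause was not tested. The other pseudocounts, at least 50 counts per arm and the replicate block left it at -0.02. With a library left out, the difference in the miR-10 share lay between -1.23 and -0.50 percentage points and that in the miR-196 share between -4.08e-05 and 0.000247. Fish that share a replicate number showed no common deviation (correlations -0.059, -0.21 and -0.17 over 537 rows), and with the replicate block the log2 fold change of miR-10a-5p was -0.18 (edgeR adjusted p = 0.93). Depth limits miR-196 and the miR-10b 3p rows, where a few counts per library decide the values.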

Other observations

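The split of miR-10b 3p counts between its rows was looked at after their values were seen. miR-10b-3p made up 10%, 14.3% and 4.35% of the counts of both miR-10b 3p rows at 24 °C, against 28%, 43.8% and 15.1% at 18 °C. These shares rest on 30, 35 and 46 counts at 24 °C and on 25, 16 and 53 counts at 18 °C. The exact binomial 95% intervals of heat replicate 2 (4.81% to 30.3%) and control replicate 3 (6.75% to 27.6%), the libraries nearest to each other, overlap widely. Those of heat replicate 3 (0.531% to 14.8%) and control replicate 2 (19.8% to 70.1%), the libraries farthest apart, do not overlap. The means were 9.54% ± 4.98 in heat-treated fish and 28.9% ± 14.4 in control fish (SD, n = 3 each), a difference of -19.4 percentage points, given with no test because the split was chosen for its values. Among 39 pairs of an unnumbered row and its numbered copy with at least 30 counts in all, 10.3% had the share of the unnumbered row apart and lower at 24 °C, and 2.56% apart and higher. The summed counts of the 2 miR-10b 3p rows were 111 at 24 °C and 94 at 18 °C.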
